A study of Homo sapiens with 6 samples.

Results

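The genes described here are 47 named genes of fatty acid oxidation, synthesis and storage, taken by symbol from a table of 16781 genes. Of these, 46 were in the table and PPARGC1A, a coactivator of the fatty acid receptors, was not analysed here. RNA was sequenced in 6 libraries of Caco-2, an established human line derived from a colon adenocarcinoma, which resembles absorptive enterocytes once confluent. The WT group held 3 libraries of unmodified cells, and the CBS KO group held 3 libraries of cells in which CRISPR/Cas9 had been used to knock out CBS stably, an enzyme that makes cystathionine and hydrogen sulfide from sulfur amino acids. Both groups grew in high glucose medium with serum. Cas9, the guide and puromycin resistance reached the CBS KO cells on a lentivirus and infected cells were selected with puromycin, and no step that picked a clone is named in the sources used here. The knockout, the infection and the selection therefore cannot be told apart. Whether replicates were separate cultures is not stated in the labels, so the p-values reflect only the spread among these libraries, which may be technical.

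Long-chain fatty acids are activated to acyl-CoA, carried into mitochondria as carnitine esters and shortened in a cycle of dehydrogenation, hydration, a further dehydrogenation and thiolysis, while peroxisomes shorten very long and branched chains. Synthesis runs the other way in the cytosol, from citrate through acetyl-CoA and malonyl-CoA to palmitate, which is then elongated and desaturated in the endoplasmic reticulum. Absorptive cells of the intestine esterify fatty acids to triglyceride and either store it in droplets or load it onto apolipoprotein B for export, and PPAR nuclear receptors, which bind fatty acids, regulate many of these genes.

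Levels are given as CPM, a gene's counts relative to the size of its library after scaling by TMM (trimmed mean of M values), and group values are means ± SD of 3 libraries. CBS itself stood at 50.8 ± 2.11 CPM in WT and fell 2.22-fold to 22.8 ± 3.81 CPM (adjusted p = 1.18e-08, edgeR's quasi-likelihood test with Benjamini-Hochberg adjustment). The libraries held 16097680 to 16176745 expected counts for WT and 12805180 to 14307287 for the knockout, and the 10 most abundant genes took 5.22 to 5.51% of them in WT and 7.78 to 8.85% in CBS KO. How the libraries were scaled mattered. With TMM all genes tested had a median log2 fold change of -0.01, but it was -0.36 when libraries were scaled by their total counts, -0.32 with the deposited FPKM and -0.54 with the deposited TPM. Of the 9 epithelial and enterocyte markers, 5 were called higher and 3 lower with TMM, where 38.4% of all genes were called higher and 38.9% lower, but 2 higher and 4 lower with library totals and 2 higher and 6 lower with TPM. Over all genes the shares were 22.8% higher and 56.8% lower with library totals, and 15.2% and 67.6% with TPM. The summed level of the 9 markers was 7360 to 7861 CPM in WT and 8475 to 9295 CPM in CBS KO. Among these markers EPCAM rose 2.13-fold, and KRT20 rose 5.54-fold from a low WT level of 0.77 ± 0.06 CPM. The intestinal transcription factors CDX2 and HNF4A fell 3.83-fold and 2.37-fold.

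The stretches of sequence before the transcription start are shown for ANGPTL4, ACADVL and SCD, which rose under every scaling tried and whose upstream windows hold long stretches outside any annotated exon. They come from RefSeq (GRCh38.p14), run along the plus strand and lie at chr19:8363905-8364150, chr17:7216875-7217117 and chr10:100346983-100347123. Capitals mark the letters CCAAT, a box that many promoters carry, on either strand.
ANGPTL4: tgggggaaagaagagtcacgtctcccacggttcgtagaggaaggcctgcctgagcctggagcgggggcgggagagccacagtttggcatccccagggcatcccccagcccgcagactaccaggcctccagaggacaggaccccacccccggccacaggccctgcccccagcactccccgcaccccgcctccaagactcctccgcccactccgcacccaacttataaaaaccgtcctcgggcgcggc
ACADVL: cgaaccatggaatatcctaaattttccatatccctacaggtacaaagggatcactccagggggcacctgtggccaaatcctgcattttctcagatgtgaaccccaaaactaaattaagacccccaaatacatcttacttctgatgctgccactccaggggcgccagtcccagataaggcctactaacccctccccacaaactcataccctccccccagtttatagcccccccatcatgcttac
SCD: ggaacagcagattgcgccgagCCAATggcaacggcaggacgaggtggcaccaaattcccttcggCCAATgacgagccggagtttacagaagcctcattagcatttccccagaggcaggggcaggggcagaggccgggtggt
The SCD stretch held 2 such boxes and the other stretches none. The GC content was 68.3% for ANGPTL4, 49.8% for ACADVL and 61.0% for SCD. RefSeq windows from 250 bases before to 50 bases after a start were matched for 39 of the 46 genes (62 windows, since some genes have several starts). CCAAT, which was added to the search after the data had been seen, lay in 18 of the 62 windows, against 34.6% of all 35116 windows. A binding site of the sterol regulatory factors (TCACNCCAC) lay in the window of ACSL1 alone, against 1.13% of all windows. The E-box CACGTG lay in the windows of ELOVL5 and PLIN2, against 7.26% of all windows. The direct repeat that PPAR dimers bind, searched in its consensus form with a spacing base, was in none of the windows and in 0.0228% of all windows. Both strands were searched, none of these motifs holds another, and a match is a description of letters only.

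Of the 46 genes in the table, 45 had enough counts for the test, and FABP2 did not. In CBS KO 14 of the 45 were called higher (31.1%) and 23 lower (51.1%) at an adjusted p under 0.05, and 8 were not called. Over all 13028 genes tested, 77.2% were called, 38.4% higher and 38.9% lower. A change of at least 2-fold was called upward in 7 of the 45 (ACADVL, PPARG, ANGPTL4, ELOVL5, ELOVL6, ACSL4 and MTTP), against 12% of all genes, and downward in 5 (CPT2, ACOX3, EHHADH, ACACB and DGAT2), against 11.5%. The median log2 fold change of the 45 was -0.23 with TMM, beside -0.01 for all genes, and -0.58, -0.43 and -0.66 with library totals, FPKM and TPM. With library totals 10 of the 45 were called higher and 31 lower (all genes 22.8% and 56.8%), with FPKM 10 and 30 (22.9% and 57.8%), and with TPM 8 and 35 (15.2% and 67.6%). Under all 5 scalings (TMM, median-ratio size factors, library totals, FPKM and TPM), 8 of the 45 were called higher, against 15% of the 11693 genes tested under each, and 23 of the 45 lower, against 38.8%. Library totals, FPKM and TPM shift the median of all genes downward, so a gene called lower with TMM tends to stay so. All 23 lower calls did, and 8 of the 14 higher calls. Staying lower under all 5 scalings therefore adds little to a lower call with TMM. In bulk RNA, fewer cells that express a gene and less of its RNA per cell cannot be told apart.

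**Figure D1:**
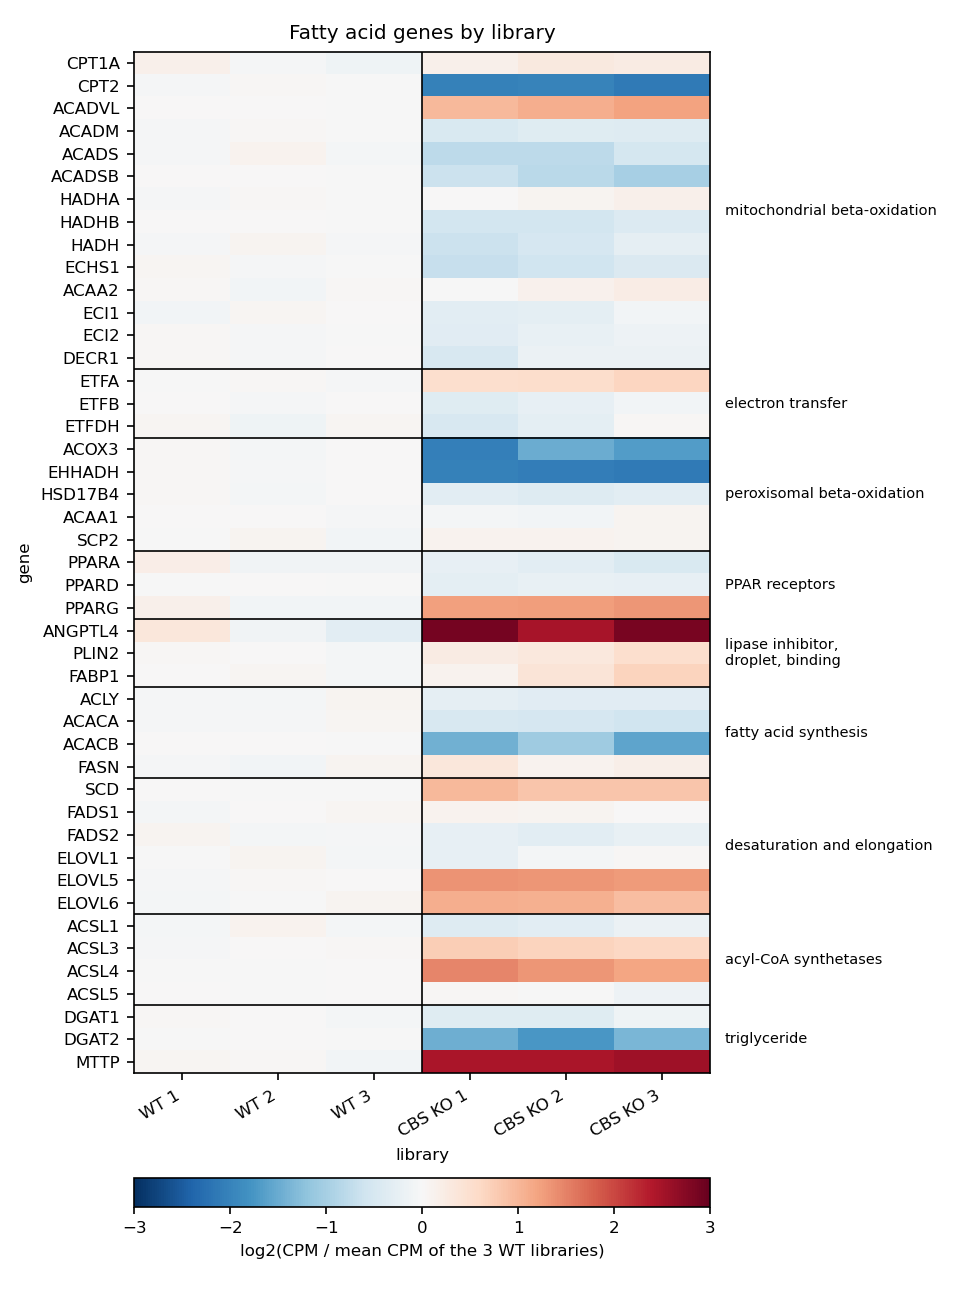
Level of each gene in each of the 6 libraries, as log2 of the CPM over the WT mean of that gene, with genes grouped by role on the vertical axis and libraries on the horizontal axis. ANGPTL4 and MTTP are the genes furthest above their WT level in the CBS KO libraries, and EHHADH and CPT2 the furthest below.

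Of 14 genes of mitochondrial beta-oxidation, 10 fell, all of them under all 5 scalings, and 2 were called higher. Over all genes, 38.8% fell under all 5 scalings and 38.4% were called higher with TMM. The largest fall was that of CPT2, the inner-membrane carnitine palmitoyltransferase that hands acyl groups back to CoA (chromosome 1, 53196824 to 53214197 in GRCh38, as are all positions here). CPT2 stood at 31.0, 32.4 and 31.6 CPM in the WT libraries and at 7.79, 7.91 and 7.32 CPM in the CBS KO libraries. Every CBS KO library lay below every WT library, and the fall was 4.13-fold (log2 fold change -2.04, SE 0.09, adjusted p = 4.31e-12). Its span overlaps that of CZIB by 99 bases, and CZIB fell too (log2 fold change -0.42), so reads at that end may be shared.

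CPT1A makes the carnitine esters on the outer membrane, the step that malonyl-CoA inhibits (chromosome 11, 68754620 to 68844277). It stood at 51.9, 45.8 and 43.3 CPM in WT and at 52.2, 57.3 and 55.6 CPM in CBS KO. The groups did not overlap, but the lowest CBS KO library was close to the highest WT library. With TMM CPT1A was called 1.17-fold higher (log2 fold change 0.23, SE 0.08, adjusted p = 0.0135), and the sign turned with library totals (-0.13), FPKM (-0.12) and TPM (-0.34). The call was also lost without WT replicate 2, WT replicate 3 or CBS KO replicate 2.

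ACADVL, the dehydrogenase of the inner membrane that opens each round on very long chains, rose 2.13-fold (chromosome 17, 7217125 to 7225266). Its libraries stood at 142, 140 and 138 CPM in WT and at 276, 295 and 320 CPM in CBS KO, so that the lowest CBS KO library was well above the highest WT library (log2 fold change 1.09, SE 0.06, adjusted p = 8.63e-11). The listed dehydrogenases of shorter and branched chains went the other way. ACADM, for medium chains, fell 1.32-fold (64.4 ± 1.63 to 48.7 ± 1.69 CPM), ACADS, for short chains, fell 1.62-fold (38.0 ± 2.25 to 23.5 ± 2.55 CPM), and ACADSB, for short branched chains, fell 1.75-fold (38.1 ± 0.22 to 21.8 ± 2.62 CPM). As a share of the summed TPM of these 4 dehydrogenases, a ratio within each library that no scaling between libraries alters, ACADVL took 52.7 to 54.5% in WT and 77.5 to 78.8% in CBS KO. ACADM went from 23.4 to 24.0% in WT to 11.7 to 12.8% in CBS KO. Outside the listed genes, the dehydrogenases ACAD9 and ACAD10 fell 3.04-fold and 1.5-fold, and ACAD11 rose 1.77-fold. They are not in these shares, and no split by chain length is claimed. ACADVL overlaps DLG4 by 2926 bases, but DLG4 stood at only 0.91 CPM in WT and at 1.25 CPM with the knockout.

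HADHA and HADHB are the subunits of the trifunctional protein, which hydrates, dehydrogenates and cleaves long chains, and their genes lie head to head on chromosome 2 with starts 307 bases apart. HADHB fell 1.42-fold (108 ± 0.26 to 76.4 ± 4.52 CPM, adjusted p = 1.40e-06). HADHA stood at 327 ± 7.31 CPM in WT and at 346 ± 17.5 CPM in the knockout cells and was not called (log2 fold change 0.08, SE 0.06, adjusted p = 0.22), and its sign turned with library totals (-0.27), FPKM (-0.27) and TPM (-0.50). ECHS1, the short-chain hydratase, fell 1.49-fold (adjusted p = 5.67e-07). HADH, the hydroxyacyl-CoA dehydrogenase, fell 1.38-fold (adjusted p = 1.08e-04). ECI1, ECI2 and DECR1, which deal with the double bonds of unsaturated chains, fell 1.17-fold, 1.17-fold and 1.20-fold. The thiolase ACAA2 was not called (log2 fold change 0.12, SE 0.07, adjusted p = 0.11), and its sign turned with library totals (-0.23), FPKM (-0.23) and TPM (-0.46).

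Summed over the 14 genes, mitochondrial beta-oxidation stood at 1736 to 1757 TPM in the WT libraries and at 1046 to 1057 TPM in the CBS KO libraries, 60.1% of the WT mean. The same sum in FPKM after TMM scaling was 943 ± 7.28 in WT and 853 ± 57.0 in CBS KO, 90.4% of the WT mean. The size of the difference in the sum thus moved with the scaling while its direction did not. With TPM the median of all genes was lower too (log2 fold change -0.54), so part of the difference in TPM is that shift.

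The electron-transferring flavoprotein takes electrons from the acyl-CoA dehydrogenases and ETFDH passes them to ubiquinone. ETFA, its alpha subunit, was called 1.47-fold higher with TMM (202 ± 5.57 to 298 ± 17.5 CPM, with a log2 fold change of 0.56, SE 0.06, adjusted p = 1.89e-07), although with TPM its log2 fold change was -0.03. ETFB, the beta subunit, fell 1.17-fold (142 ± 2.67 to 121 ± 12 CPM, adjusted p = 0.00603). ETFDH had a log2 fold change of -0.23 (SE 0.12) and was not called with TMM (adjusted p = 0.10), but it was called lower with library totals, FPKM and TPM. ETFDH overlaps PPID, which fell, by 497 bases.

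Of 5 genes of peroxisomal beta-oxidation 3 fell, under all 5 scalings, against 38.8% of all genes, and none was called higher. EHHADH, the bifunctional enzyme that hydrates and dehydrogenates chains in peroxisomes, stood at 91.2, 88.0 and 89.7 CPM in WT and at 22.1, 21.3 and 20.5 CPM in CBS KO (chromosome 3, 185190624 to 185254049). The groups were far apart, and the fall of 4.21-fold was the largest among the 45 genes with TMM (log2 fold change -2.07, SE 0.07, adjusted p = 1.96e-13). ACOX3, an oxidase that acts on branched chains, stood at 12.5, 11.6 and 12.3 CPM in WT and at 2.95, 4.31 and 3.82 CPM in CBS KO (chromosome 4, 8355305 to 8440723). That was a fall of 3.29-fold (log2 fold change -1.72, SE 0.14, adjusted p = 6.15e-09). HSD17B4, the other bifunctional enzyme, fell 1.26-fold (164 ± 5.27 to 130 ± 3.75 CPM). The thiolases were not called. ACAA1 had a log2 fold change of -0.02 (SE 0.07, adjusted p = 0.79), which was 0.007 without CBS KO replicate 2. SCP2 had one of 0.10 (SE 0.06, adjusted p = 0.16), and its sign turned with library totals (-0.26), FPKM (-0.12) and TPM (-0.35).

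Of the 3 PPAR receptors 1 rose and 2 fell, under all 5 scalings, against 15% and 38.8% of all genes. PPARG, the receptor best known from fat cells and also present in colon epithelium, stood at 33.1, 28.3 and 28.5 CPM in WT and at 69.9, 71.6 and 74.6 CPM in CBS KO (chromosome 3, 12287368 to 12434344). Every CBS KO library lay above the highest WT library, and the rise was 2.41-fold (log2 fold change 1.27, SE 0.08, adjusted p = 1.81e-10). PPARA, which drives oxidation genes in liver and intestine, stood at 99.1, 81.0 and 80.2 CPM in WT and at 73.0, 69.8 and 63.2 CPM in CBS KO (chromosome 22, 46150526 to 46243756). It fell 1.26-fold (log2 fold change -0.34, SE 0.08, adjusted p = 0.00186), and WT replicate 1 stood above the other WT libraries. PPARD, the widely expressed form, fell 1.19-fold (41.4 ± 0.58 to 34.7 ± 0.66 CPM, adjusted p = 0.00273). Of the summed TPM of the 3 receptors, PPARG took 43.5 to 45.6% in WT and 64.6 to 67.2% in CBS KO. TPM divides by transcript length, and the length implied in CBS KO was 111% of that in WT for PPARG and 83.6% for PPARA. This share therefore also holds these changes in length, both of which work to lower it.

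The lipase inhibitor, droplet coat and fatty acid binding genes tested were 3, all called higher with TMM, of which ANGPTL4 alone was so under all 5 scalings. Over all genes, 38.4% were called higher with TMM and 15% under all 5 scalings. ANGPTL4, a secreted inhibitor of lipoprotein lipase and a PPAR target, stood at 1.70, 1.26 and 1.09 CPM in WT and at 9.84, 7.47 and 9.76 CPM in CBS KO (chromosome 19, 8364155 to 8374370). This was the largest rise of the 45 genes with TMM, at 6.66-fold (log2 fold change 2.73, SE 0.19, adjusted p = 9.63e-10), and its WT level was low. PLIN2, the coat protein of most lipid droplets, was called 1.29-fold higher with TMM (109 ± 3.88 to 141 ± 12.5 CPM, adjusted p = 1.19e-04), with a log2 fold change of 0.01 with library totals and -0.23 with TPM.

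FABP1, the liver-type fatty acid binding protein of enterocytes and hepatocytes, stood at 280, 288 and 266 CPM in WT and at 297, 363 and 442 CPM in CBS KO (chromosome 2, 88122982 to 88128062). The CBS KO libraries were spread widely, and the lowest lay just above the highest WT library. With TMM FABP1 was called 1.32-fold higher (log2 fold change 0.40, SE 0.12, adjusted p = 0.0107). It was not called without the filter on low counts (adjusted p = 0.071) or with library totals (log2 fold change 0.04), and its sign turned with TPM (-0.20). FABP2, the intestinal binding protein, stood at 0.44, 0.44 and 0.44 CPM in WT and at 0.25, 0.26 and 0.49 CPM in CBS KO, close to the 0.164 to 0.264 CPM that a count of 0 allows, and was not tested. The filter on low counts removed FABP2, which had 24 counts over the WT libraries and 12 over the CBS KO libraries. No difference in it is claimed.

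Of 4 genes of fatty acid synthesis 3 fell under all 5 scalings, against 38.8% of all genes. ACLY, which cuts citrate to acetyl-CoA, fell 1.24-fold (289 ± 16.2 to 233 ± 7.29 CPM, adjusted p = 1.26e-04). ACACA, the acetyl-CoA carboxylase of the cytosol that makes malonyl-CoA for synthesis, stood at 112, 113 and 121 CPM in WT and at 83.0, 81.0 and 76.3 CPM in CBS KO (chromosome 17, 37084992 to 37406836). It fell 1.44-fold (log2 fold change -0.53, SE 0.06, adjusted p = 8.14e-07). ACACB, the carboxylase of the mitochondrial surface whose malonyl-CoA restrains CPT1, stood at 27.4, 27.2 and 26.9 CPM in WT and at 9.92, 12.9 and 9.03 CPM in CBS KO (chromosome 12, 109111189 to 109268226). It fell 2.56-fold (log2 fold change -1.36, SE 0.11, adjusted p = 6.00e-09). ACACB made up 19.3 to 21.2% of the summed TPM of both carboxylases in WT and 11.5 to 16.5% in CBS KO.

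FASN, the fatty acid synthase that builds palmitate, stood at 416, 402 and 451 CPM in WT and at 536, 455 and 478 CPM in CBS KO (chromosome 17, 82078338 to 82098236). CBS KO replicate 2 lay just above WT replicate 3. With TMM FASN was called 1.16-fold higher (log2 fold change 0.21, SE 0.07, adjusted p = 0.0110), and its sign turned with library totals (-0.14), FPKM (-0.14) and TPM (-0.37). The call was lost without WT replicate 1, WT replicate 2 or CBS KO replicate 1.

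Of 6 genes of desaturation and elongation 3 rose and 1 fell, all under all 5 scalings, against 15% and 38.8% of all genes. SCD, the delta-9 desaturase that makes oleate and a target of sterol regulatory factors, stood at 1088, 1069 and 1069 CPM in WT and at 2096, 1916 and 1924 CPM in CBS KO (chromosome 10, 100347233 to 100364826). It rose 1.84-fold (log2 fold change 0.88, SE 0.07, adjusted p = 3.89e-09). FADS1 and FADS2, the delta-5 and delta-6 desaturases of polyunsaturated chains, lie head to head on chromosome 11 with spans that overlap by 801 bases. FADS2 fell 1.20-fold (45.6 ± 2.21 to 37.9 ± 1.25 CPM, adjusted p = 0.0025). FADS1 was not called (log2 fold change 0.07, SE 0.06, adjusted p = 0.27), and its sign turned with library totals (-0.28), FPKM (-0.28) and TPM (-0.51). SCD took 79.2 to 80.0% of the summed TPM of these 3 desaturases in WT and 87.5 to 88.3% in CBS KO.

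ELOVL5, which elongates polyunsaturated chains, stood at 143, 151 and 149 CPM in WT and at 375, 367 and 360 CPM in CBS KO (chromosome 6, 53267404 to 53348950). The groups were far apart, and the rise was 2.49-fold (log2 fold change 1.31, SE 0.05, adjusted p = 2.28e-12). ELOVL6, which takes palmitate to stearate, stood at 16.9, 17.4 and 18.6 CPM in WT and at 37.7, 37.0 and 33.4 CPM in CBS KO, a rise of 2.04-fold (log2 fold change 1.03, SE 0.08, adjusted p = 5.38e-09; chromosome 4, 110045846 to 110199202). ELOVL1, the elongase of very long saturated chains, was not called with TMM (log2 fold change -0.09, SE 0.08, adjusted p = 0.31) and was called lower with library totals, FPKM and TPM. Of the summed TPM of the 3 elongases, ELOVL5 took 49.4 to 52.2% in WT and 76.4 to 79.9% in CBS KO. TPM divides by transcript length, and the length implied for ELOVL5 in CBS KO was 71.8% of that in WT, so part of the rise in this share is that change in length.

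The 4 acyl-CoA synthetases activate long-chain fatty acids, and 2 were called higher and 1 lower with TMM, against 38.4% and 38.9% of all genes. ACSL4, which prefers arachidonate, stood at 46.5, 46.5 and 47.4 CPM in WT and at 128, 117 and 106 CPM in CBS KO (chromosome X, 109641335 to 109733257). It rose 2.5-fold (log2 fold change 1.32, SE 0.07, adjusted p = 7.12e-11). ACSL3, a synthetase of the endoplasmic reticulum and droplets, rose 1.59-fold (192 ± 4.0 to 305 ± 12.9 CPM, adjusted p = 1.09e-08), and was not called with TPM (log2 fold change 0.09). ACSL1 was called 1.22-fold lower (9.68 ± 0.59 to 7.97 ± 0.59 CPM, adjusted p = 0.0333), a call lost with DESeq2 and without WT replicate 2, CBS KO replicate 1 or CBS KO replicate 2. ACSL5, an intestinal form, was not called (log2 fold change -0.04, SE 0.06, adjusted p = 0.59), and its log2 fold change was 0.004 without CBS KO replicate 3. With library totals, FPKM and TPM it was called lower. Of the summed TPM of the 4 synthetases, ACSL4 took 13.3 to 13.7% in WT and 21.8 to 23.7% in CBS KO, and ACSL5 took 37.9 to 39.1% in WT and 25.2 to 26.2% in CBS KO.

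The 2 DGAT enzymes, which add the last acyl group of triglyceride, both fell under all 5 scalings, as did 38.8% of all genes. DGAT2 stood at 54.9, 55.7 and 54.1 CPM in WT and at 19.8, 16.3 and 21.1 CPM in CBS KO (chromosome 11, 75768778 to 75801534). Its fall was 2.87-fold (log2 fold change -1.52, SE 0.08, adjusted p = 7.99e-11), while DGAT1 fell 1.21-fold (169 ± 5.73 to 140 ± 12.6 CPM, adjusted p = 0.00101). DGAT2 took 24.9 to 26.7% of their summed TPM in WT and 11.4 to 13.2% in CBS KO.

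MTTP, the transfer protein that loads lipid onto apolipoprotein B, stood at 11.5, 11.4 and 10.5 CPM in WT and at 60.5, 60.5 and 64.5 CPM in CBS KO (chromosome 4, 99564130 to 99623997). The libraries of each group lay close together, and the rise was 5.55-fold (log2 fold change 2.47, SE 0.08, adjusted p = 6.88e-14). APOB, the protein that MTTP loads, fell 4.01-fold in the same libraries (494 ± 16.2 to 123 ± 7.02 CPM, adjusted p = 5.92e-14). Of 8 hepatocyte markers 7 were tested. TF was called higher (13.05 ± 1.46 to 21.0 ± 0.91 CPM) and 5 were called lower, ALB among the latter (19.4 ± 1.39 to 0.42 ± 0.08 CPM). Over all genes 38.4% were called higher and 38.9% lower. The summed level of the hepatocyte markers was 1659 to 1791 CPM in WT and 1310 to 1536 CPM in CBS KO. Most of it was SERPINA1, which was not called (1166 ± 48.5 to 1252 ± 114 CPM). Of 8 markers of blood, stroma and endothelium in the table, 5 were tested, 1 called higher and 3 lower, and their sum was 239 to 273 CPM in WT and 271 to 295 CPM in CBS KO. The gene called higher was CD68 (32.9 ± 3.00 to 91.8 ± 8.25 CPM). The part of these markers, and of the fall of CDX2 and HNF4A, in the changes of fatty acid genes was not tested.

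**Figure D2:**
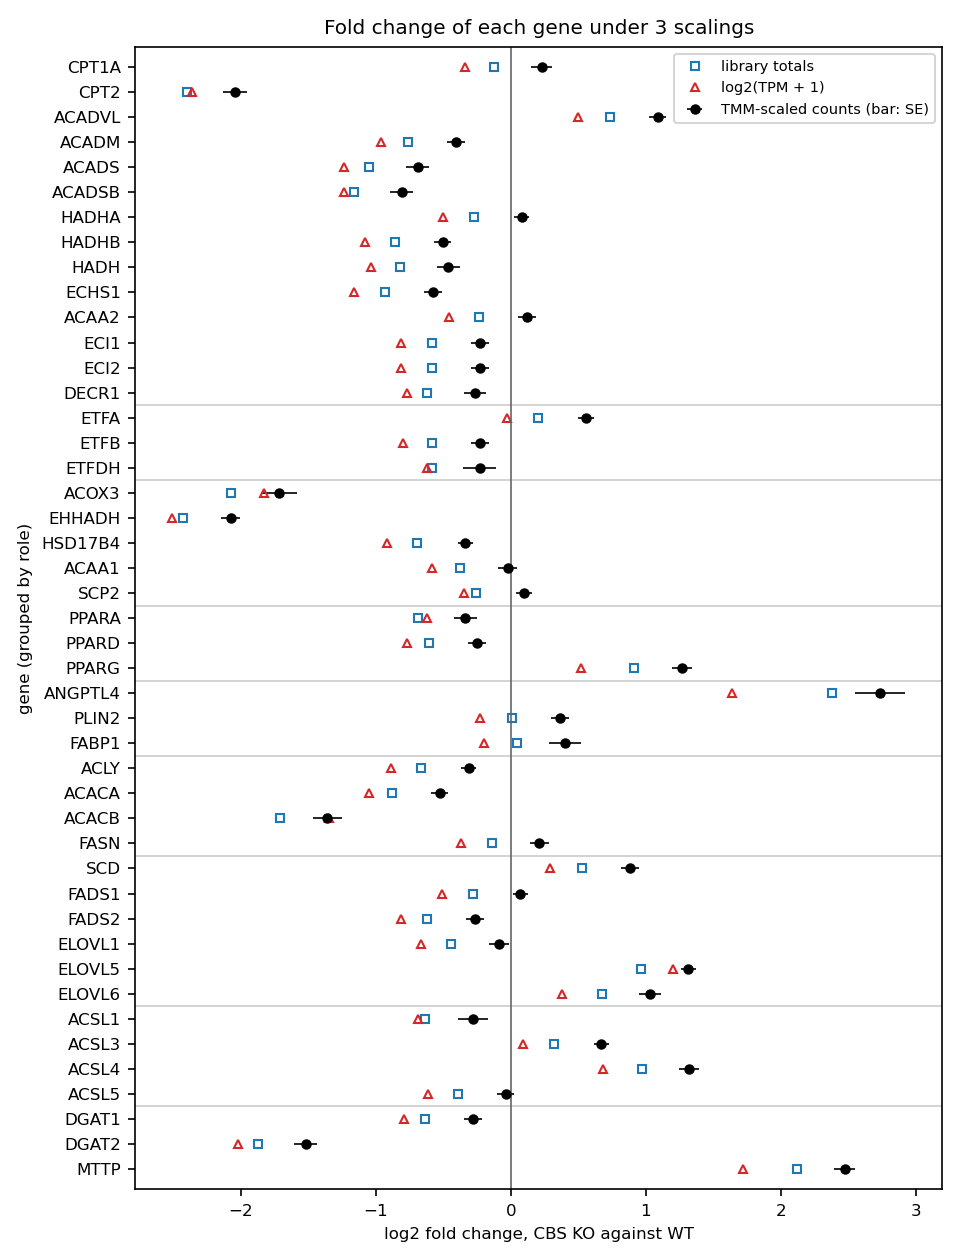
Log2 fold change of each of the 45 tested genes, CBS KO against WT (horizontal axis), under 3 scalings of the same libraries, with genes grouped by role on the vertical axis. CPT1A, HADHA, ACAA2, SCP2, FASN and FADS1 lie above 0 with TMM and below 0 with library totals and TPM, while MTTP, ANGPTL4, EHHADH and CPT2 keep their direction.

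Per length, the levels of these genes spanned a wide range. FABP1 was the most abundant in both groups, at 2541 ± 116 TPM in WT and 2220 ± 161 TPM in CBS KO. In WT it was followed by ECHS1 (536 ± 16.2 TPM), ETFB (450 ± 7.02 TPM), SCD (402 ± 3.99 TPM) and HADHA (229 ± 5.03 TPM), each further from the next than their SDs. In CBS KO the order was SCD (495 ± 54.5 TPM), ELOVL5 (295 ± 26.3 TPM), ETFB (258 ± 3.00 TPM) and ECHS1 (239 ± 4.90 TPM). Apart from FABP2, ANGPTL4 was the lowest in WT, at 1.61 ± 0.38 TPM, while in CBS KO ACOX3 (1.65 ± 0.26 TPM) and ACACB (1.72 ± 0.45 TPM) were the lowest and did not differ beyond their SDs.

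The roles differed in how their summed TPM compared between groups. Desaturation and elongation stood at 754.7 to 762 TPM in WT and at 860 to 1027 TPM in CBS KO, and was the only role of the 9 whose mean was higher in CBS KO by TPM. Within it SCD rose from 402 ± 3.99 to 495 ± 54.5 TPM and ELOVL5, whose implied length fell, from 128 ± 4.80 to 295 ± 26.3 TPM. After TMM scaling of FPKM, the means of the PPARs (146% of WT), the lipase inhibitor, droplet and binding group (132%) and the acyl-CoA synthetases (145%) were higher too, while that of electron transfer (104%) differed from WT by less than the CBS KO SD. The droplet and binding sum was mostly FABP1 (2541 ± 116 TPM in WT), whose call was lost with library totals. Peroxisomal beta-oxidation (55.4% by TPM and 83.0% after TMM scaling), fatty acid synthesis (61.4% and 91.9%) and triglyceride synthesis and export (58.0% and 87.3%) were lower under both. With TPM the median of all genes was lower too (log2 fold change -0.54), so the TPM percentages hold part of that shift. Most of the triglyceride sum was DGAT1 (139 ± 7.78 TPM in WT), and MTTP rose within it from 5.68 ± 0.27 to 21.0 ± 0.80 TPM.

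The deposited files allow the mean transcript length that the authors' quantification assigned to a gene to be worked out from its counts, its FPKM and the library total. This length moves when reads shift between long and short transcripts. It could be computed for 42 of the genes, of which 3 moved by at least 1.1-fold with no overlap between libraries, as did 7.8% of 10730 genes. Of the other 39, 33 differed between groups by no more than 0.02 on the log2 scale. For ELOVL5 the implied length was 2157, 2179 and 2087 bases in WT and 1535, 1516 and 1558 bases in CBS KO, 71.8% of the WT mean. For PPARA it was 8539, 8402 and 8171 bases in WT and 7375, 6944 and 6664 bases in CBS KO, 83.6% of the WT mean. For PPARG it was 1648, 1657 and 1630 bases in WT and 1829, 1849 and 1808 bases in CBS KO, 111% of the WT mean. GENCODE lists 4 coding transcripts of ELOVL5 from 580 to 3081 bases, 6 of PPARA from 368 to 9995 bases, and 13 of PPARG from 428 to 2029 bases. Which transcripts differed cannot be read from a table of genes. FPKM divides by this length, so the log2 fold change of ELOVL5 was 0.96 from counts over library totals and 1.44 from FPKM (pseudocount 0.1), that of PPARA -0.69 and -0.42, and that of PPARG 0.91 and 0.76.

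Other genes of these pathways were counted from a list of 108, of which 106 were in the table and 98 were tested. Of the 98, 39 were called higher (39.8%) and 42 lower (42.9%), and 17 were not called, close to the shares over all genes (38.4% and 38.9%). With TPM, 17 were called higher and 64 lower, against 15.2% and 67.6% of all genes. The carnitine shuttle and uptake genes had 1 called higher and 5 lower of 8. CROT, the carnitine octanoyltransferase of peroxisomes, fell 5.71-fold (16.1 ± 1.98 to 2.82 ± 0.22 CPM), and SLC25A20, the carrier of acylcarnitines across the inner membrane, fell 1.36-fold (15.7 ± 1.33 to 11.4 ± 2.48 CPM, adjusted p = 0.00477). CD36 was not analysed here. Further oxidation enzymes had 3 called higher and 11 lower of 16. ACAD9, a dehydrogenase that also assembles respiratory complex I, fell 3.04-fold (48.0 ± 2.54 to 15.8 ± 2.23 CPM).

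Of 4 tested genes of ketogenesis and PPAR targets, 1 was called higher and 2 lower, against 38.4% and 38.9% of all genes. PDK4, a kinase that restrains pyruvate oxidation, had 2 counts over the WT libraries and 21 over the CBS KO libraries and was not tested. The CBS KO libraries stood at 1.23, 0.35 and 0.16 CPM, so most of these counts came from replicate 1. Among 18 tested lipogenic regulators, 6 were called higher and 9 lower with TMM, and 3 higher and 13 lower with TPM. With TPM the shares over all genes were 15.2% and 67.6%. SREBF1, which encodes the factor best known for fatty acid synthesis genes, fell 1.87-fold (76.5 ± 2.26 to 41.0 ± 1.99 CPM), while SREBF2, best known for cholesterol synthesis genes, rose 1.9-fold (266 ± 6.73 to 506 ± 3.12 CPM). INSIG1, which holds the SREBP complex in the endoplasmic reticulum and is itself a target of it, rose 15.6-fold (38.3 ± 2.23 to 597 ± 11.8 CPM). MLXIPL, the glucose-sensing factor ChREBP, was called 1.22-fold higher with TMM (adjusted p = 0.0012), but its log2 fold change of 0.29 turned to -0.06 with library totals, -0.05 with FPKM and -0.28 with TPM.

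The droplet, lipolysis and binding genes had 11 called higher and 2 lower of 16 with TMM, and 6 higher and 4 lower with TPM. Over all genes the shares were 38.4% and 38.9% with TMM and 15.2% and 67.6% with TPM. HILPDA, a droplet protein that inhibits triglyceride lipase, rose 9.75-fold (20.6 ± 1.82 to 201 ± 9.96 CPM), and MGLL, the lipase of monoacylglycerol, rose 4.62-fold (14.1 ± 0.64 to 65.2 ± 3.30 CPM). Triglyceride synthesis genes had 7 called higher and 5 lower of 15 with TMM, and 2 higher and 10 lower with TPM. GPAT3, an acyltransferase of the first step, rose 3.65-fold (4.99 ± 0.43 to 18.2 ± 1.9 CPM). LPCAT3, which puts polyunsaturated chains into phospholipid, fell 2.61-fold (77.1 ± 4.12 to 29.5 ± 4.22 CPM). Further synthesis, desaturation and elongation genes had 7 called higher and 6 lower of 15 with TMM, and 2 higher and 10 lower with TPM. Of 6 lipoprotein assembly genes 3 were called higher and 2 lower with TMM, and 2 higher and 4 lower with TPM. APOA4, an apolipoprotein of intestinal particles, rose 5.05-fold (58.1 ± 2.69 to 294 ± 26.4 CPM), opposite to APOB.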

How the data were processed

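RNA of 3 WT and 3 CBS KO libraries was measured after oligo(dT) selection and a strand-marking protocol, per the labels' protocols. Per the submitters' processing notes the build was GRCh38, and the tools listed, with no role given, include StringTie 2.1.6, HISAT2 2.2.1 and cutadapt 1.9, besides edgeR and DESeq2. How reads were assigned to genes, by strand or among copies, is not given in the sources used here, so genes with overlapping neighbours (CPT2, ACADVL, HADHA, ETFDH, ACAA1, ACACA, FADS1, FADS2, ACSL5, DGAT1) or named pseudogenes (HADHA, SCD, FADS2) are less certain.

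The authors deposited expected counts per gene, not normalised, and 7.12 to 7.43% of the values of a library are fractional. They also deposited FPKM (per length and library total) and TPM (with the same sum in every library), per the file headers. The authors' 6 mean columns were not used.

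Counts were rounded, filtered with filterByExpr (13028 genes kept), scaled by TMM and tested with edgeR 4.0.16's robust quasi-likelihood test (limma 3.58.1, R 4.3.3), CBS KO against WT with no covariate. P-values were adjusted by Benjamini-Hochberg over all genes tested and called under 0.05. The SE given was worked back from the test, as the size of the log2 fold change over the square root of the F value. Alternatives were median-ratio size factors, library totals, DESeq2 1.42.0, no filter, a mean of at least 5 CPM, limma on log2 of FPKM or TPM plus 1 or 0.1 (mean of at least 1), a replicate block, and each library left out. Fold changes of FPKM and TPM are on that log2 scale, which understates low genes. A count of 0 was read as at most 3 counts, for counting error only. The test was tested on simulated counts. Genes given in every library are those changed at least 2-fold and CPT1A, ACACA, FASN, SCD, PPARA, PPARG, FABP1 and MTTP. From the pathway list SREBF1, SREBF2, MLXIPL, SLC25A20, PDK4, CD36, INSIG1 and APOB were named, with the 5 largest called changes in each direction that reach 5 CPM, and 2 genes that this rule also takes in are not reported here. ACAD10 and ACAD11 were named besides. The members and lists were chosen with earlier results of these data known. Positions and promoters come from RefSeq on GRCh38, exons from GENCODE v29.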

Additional observations from a re-analysis of the deposited data

How the results depend on the processing

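Of the 45 genes tested, 30 kept their direction and side of the threshold under every one of the 16 alternatives in which they were tested, and CBS did so too. ANGPTL4, among the 30, was left out by the filter of at least 5 CPM in the mean, which was taken before TMM scaling. The count of fatty acid genes called higher went from 14 to 8 with TPM, and that called lower from 23 to 35, with either pseudocount. Other pathway genes called higher went from 39 to 21 with library totals and with FPKM, and to 17 with TPM, and those called lower from 42 to 64 with TPM. Over all genes, 4998 were called higher and 5062 lower with TMM, which put 49.7% of calls upward. Higher calls fell to 2966 with library totals (28.6% upward), 2679 and 2673 with FPKM plus 1 and plus 0.1 (28.4%), and 1844 and 1834 with TPM plus 1 and plus 0.1 (18.3%), where 8216 and 8191 were lower. These settings shift the median of all genes downward, as given above.

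The log2 fold change of 6 genes turned negative with library totals, FPKM plus 1, FPKM plus 0.1, TPM plus 1 and TPM plus 0.1. In that order CPT1A stood at -0.13, -0.12, -0.13, -0.34 and -0.36, HADHA at -0.27, -0.27, -0.27, -0.50 and -0.51, and ACAA2 at -0.23, -0.23, -0.23, -0.46 and -0.47. SCP2 stood at -0.26, -0.12, -0.12, -0.35 and -0.35, FASN at -0.14, -0.14, -0.14, -0.37 and -0.38, and FADS1 at -0.28, -0.28, -0.28, -0.51 and -0.51. MLXIPL stood at -0.063, -0.054, -0.058, -0.28 and -0.29. With TPM plus 1 and plus 0.1 alone, ETFA turned to -0.029 and -0.030, PLIN2 to -0.23 and -0.23, and FABP1 to -0.20 and -0.20. With each library left out in turn, ACAA1 ranged from -0.088 without CBS KO replicate 3 to 0.0071 without CBS KO replicate 2, and ACSL5 from -0.094 without CBS KO replicate 1 to 0.0038 without CBS KO replicate 3. Leaving out a library also ended or made a call for CPT1A, FASN, ACSL1, ACAA2, ETFDH and ELOVL1, all within 0.40 of 0 on the log2 scale.

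Deviations of same-numbered libraries correlated at 0.0405, 0.0174 and 0.022. Those of other pairs ranged from -0.0466 (WT replicate 3 with CBS KO replicate 1) to 0.0235 (WT replicate 3 with CBS KO replicate 2). Correlations this small neither show nor exclude that the numbers pair the samples. With the number as a replicate block 4986 genes were called higher and 5058 lower, and none of the 45 fatty acid genes changed its call. The other pathway genes called higher went from 39 to 38. The depth of 12805180 to 16176745 counts left FABP2 and PDK4 with too few counts to pass the filter of the main test.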
